A study of Mus musculus with 18 samples.

Results

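The immunoglobulin heavy chain (Igh) locus codes for the heavy chain of antibodies and of the B-cell receptor. Its transcripts were taken by gene symbol, as every V, D or J segment (Ighv, Ighd or Ighj followed by a number) and the constant region genes Ighm, Ighd, Ighg3, Ighg1, Ighg2b, Ighg2c, Ighe and Igha. The rule found 214 of the 32285 genes in the table, namely 185 V segments, 17 D segments, 4 J segments and 8 constant genes. All 214 were matched by gene identifier to the GENCODE M21 annotation of mm10, where they lie on chromosome 12 between 113254830 and 116010093, and 212 of them are on the minus strand.

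RNA came from CD45.2-positive cells, named iLS in the labels, that were sorted from bone marrow of C57BL/6 mice. The genotype of control cells is given as CD45.2(+) with no fusion (mock on day 6), BN1 cells carried BRD9-NUTM1 and AFFN1 cells AFF1-NUTM1 on the same CD45.2(+) background. BRD9 is a chromatin remodelling subunit, AFF1 a transcription elongation factor and NUTM1 a protein normally made in the testis. Each of the 3 kinds was collected on day 6 and on day 14, which gave 6 groups of 3 libraries. The labels state neither the vector or promoter behind a fusion, nor the animals' age, nor whether libraries of a group came from separate animals or cultures, so p-values measure only the spread between these samples. Descriptions are worded differently on the 2 days, and day cannot be told apart from experiment.

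A heavy chain gene is assembled in developing B cells. The RAG enzyme first joins a D segment to a J segment and then a V segment to that unit, after which the rearranged exon is spliced to the µ constant exons (Ighm). Ighd, the δ constant gene, is spliced from the same primary transcript. In the mouse the V families Ighv5 and Ighv2 lie nearest to the D segments (proximal) and the large Ighv1 family with Ighv8 lies farthest away (distal). Distal V segments come within reach only when the locus contracts. Unrearranged V segments and constant genes are also transcribed, as germline transcripts, and counts per gene do not separate these from rearranged transcripts. In bulk RNA, fewer cells with a transcript and less of it per cell cannot be told apart either.

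Sequences of a few members show what the counts could and could not resolve. First come Ighv5-2 and Ighv5-4, the proximal V segments with most signal in several groups. The first 300 coding bases of each are given 5′ to 3′ from the GENCODE M21 transcripts (mm10, chromosome 12, minus strand), with bases that differ between the members of a pair in capitals.
Ighv5-2 (113578504 to 113578990): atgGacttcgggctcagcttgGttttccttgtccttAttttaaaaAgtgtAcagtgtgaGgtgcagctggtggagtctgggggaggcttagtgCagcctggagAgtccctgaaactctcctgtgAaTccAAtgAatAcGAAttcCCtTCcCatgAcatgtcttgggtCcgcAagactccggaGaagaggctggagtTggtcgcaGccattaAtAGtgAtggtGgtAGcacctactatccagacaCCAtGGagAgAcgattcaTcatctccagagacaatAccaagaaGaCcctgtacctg
Ighv5-4 (113597446 to 113597977): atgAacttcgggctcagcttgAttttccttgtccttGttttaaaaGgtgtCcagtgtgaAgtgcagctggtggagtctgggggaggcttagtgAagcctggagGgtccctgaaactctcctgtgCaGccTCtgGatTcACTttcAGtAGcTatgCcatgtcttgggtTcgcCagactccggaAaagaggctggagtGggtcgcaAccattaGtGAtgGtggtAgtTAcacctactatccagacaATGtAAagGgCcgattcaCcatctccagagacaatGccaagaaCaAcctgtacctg
These differ at 46 of 300 positions, and neither had a value that was not whole in any library.

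The distal leaders of AFFN1 cells on day 6, Ighv1-5 and Ighv1-7, differ at 53 of 300 positions and are shown in the same way.
Ighv1-5 (114513330 to 114513807): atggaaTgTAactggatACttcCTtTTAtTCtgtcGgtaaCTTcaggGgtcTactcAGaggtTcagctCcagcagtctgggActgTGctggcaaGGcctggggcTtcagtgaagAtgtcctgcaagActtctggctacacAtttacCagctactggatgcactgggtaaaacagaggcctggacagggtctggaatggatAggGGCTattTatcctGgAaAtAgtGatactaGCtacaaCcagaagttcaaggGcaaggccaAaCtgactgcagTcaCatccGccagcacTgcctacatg
Ighv1-7 (114538495 to 114538965): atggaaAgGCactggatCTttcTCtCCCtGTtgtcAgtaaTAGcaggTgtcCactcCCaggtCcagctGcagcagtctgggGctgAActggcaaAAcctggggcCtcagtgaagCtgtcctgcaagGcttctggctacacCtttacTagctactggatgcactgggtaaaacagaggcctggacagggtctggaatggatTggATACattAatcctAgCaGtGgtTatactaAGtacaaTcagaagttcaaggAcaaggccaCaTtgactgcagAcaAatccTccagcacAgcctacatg
Other V segments are much closer to each other. Ighv2-2 and Ighv2-4 differ at 5 of 300 positions, 98.3% identity, and their expected counts were not whole in 9 libraries, since RSEM divides reads that fit several genes.
Ighv2-2 (113588267 to 113588702): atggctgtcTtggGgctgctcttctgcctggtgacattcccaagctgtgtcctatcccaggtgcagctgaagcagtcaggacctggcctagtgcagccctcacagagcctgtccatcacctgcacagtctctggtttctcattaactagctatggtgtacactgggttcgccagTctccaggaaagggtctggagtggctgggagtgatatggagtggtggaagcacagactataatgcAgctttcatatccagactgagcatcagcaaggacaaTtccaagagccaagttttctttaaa
Ighv2-4 (113653291 to 113653724): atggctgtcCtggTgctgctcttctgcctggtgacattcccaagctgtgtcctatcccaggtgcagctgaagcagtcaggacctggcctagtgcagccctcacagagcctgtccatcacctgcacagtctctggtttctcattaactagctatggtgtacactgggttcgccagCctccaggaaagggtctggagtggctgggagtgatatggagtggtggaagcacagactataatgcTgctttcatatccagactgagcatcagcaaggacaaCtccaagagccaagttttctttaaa
In all, 16 V segments had values that were not whole, and over their last 294 coding bases these were 95.9 to 100% identical to their nearest other V segment, with a median of 98.3%. The other 99 V segments with a coding sequence of that kind had a median identity of 93.9% to their nearest. Values of Ighv2-2, Ighv2-4, Ighv1-7, Ighv1-52, Ighv1-62-3 and Ighv1-72 are therefore uncertain by the reads shared with a near copy.

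D and J segments were practically unmeasured. No D segment had a count in any of the 18 libraries, and the J segments had 1 count in all, in Ighj1. Their annotated transcripts are short, as the coding bases of the J segments (with the TGGGG of the conserved tryptophan-glycine motif in capitals) and a short and a longer D segment show. Coordinates are those of the annotated gene, which for Ighj2 spans more than the 48 bases shown.
Ighj1 (113429781 to 113429833): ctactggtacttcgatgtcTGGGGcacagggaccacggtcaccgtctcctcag
Ighj2 (113429468 to 113429567): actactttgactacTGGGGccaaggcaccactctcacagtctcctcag
Ighj3 (113429085 to 113429132): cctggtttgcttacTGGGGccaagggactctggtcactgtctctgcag
Ighj4 (113428514 to 113428567): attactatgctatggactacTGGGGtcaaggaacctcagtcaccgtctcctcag
Ighd4-1 (113430528 to 113430538): ctaactgggac
Ighd1-1 (113482170 to 113482192): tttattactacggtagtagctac
The 17 D segments have 10 to 29 exon bases, so the counts bear on V and constant exons only.

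Depth and cell identity bear on every value. Total expected counts per library, in units of 1000000, ran from 14.2 to 18.4. Markers of pro-B and pre-B cells were found in all 18 libraries. Pax5 was at 627 to 1108 CPM (counts per 1000000), Ebf1 at 409 to 981, Vpreb1 at 714 to 1654 and Igll1 at 1109 to 1697. The list of 10 such markers summed to 6998 to 15347 CPM. Summed levels of other marker lists, of 10 genes each, ran from 60.8 to 809 CPM for mature B cells (Ighd is 1 of the 10, and Ms4a1 had at most 0.478 CPM), 448 to 862 CPM for plasma cells, 71.2 to 228 for T cells, 22.6 to 219 for myeloid cells, 3.08 to 90.3 for erythroid cells and 15.0 to 163 for stromal cells. CPM here are scaled by TMM, edgeR's library scaling, within the 9 libraries of a day unless stated.

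Ighm, the µ chain gene, held nearly all of the locus' signal, with 992317 of the members' counts. On day 6 it stood at 1751, 1572 and 1977 CPM in control, 2502, 2423 and 2738 in BN1, and 1834, 1785 and 1667 in AFFN1 libraries. Every BN1 library was above every control and AFFN1 library, while the control and AFFN1 ranges overlapped. Per kb of exon, Ighm averaged 936 ± 108 CPM in control, 1354 ± 87.0 in BN1 and 934 ± 45.5 in AFFN1 cells (SD, n = 3), against 10.4 to 16.7 for Ighd and 7.65 to 35.4 for Ighg2b. On day 14 Ighm was at 3265, 4056 and 5176 CPM in control, 3722, 5192 and 4492 in BN1, and 3399, 4880 and 4580 in AFFN1 libraries. These 3 ranges overlapped.

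Ighd was at 22.7, 15.0 and 21.8 CPM in control, 39.8, 26.0 and 29.4 in BN1, and 31.7, 34.2 and 29.3 in AFFN1 libraries on day 6. Both fusion groups lay above all control libraries and overlapped each other. On day 14 Ighd was at 22.0, 32.2 and 53.3 CPM in control, 26.5, 51.8 and 47.6 in BN1, and 35.5, 39.0 and 50.2 in AFFN1 libraries, and the groups overlapped. Ighg2b, the γ2b constant gene, had 22.1, 16.7 and 22.6 CPM in control, 49.9, 43.1 and 30.6 in BN1, and 98.4, 91.3 and 94.5 in AFFN1 libraries on day 6, so that the 3 groups were separate and AFFN1 the highest. On day 14 the values were 31.3, 8.79 and 21.2 in control, 34.0, 27.9 and 46.9 in BN1, and 93.5, 26.7 and 66.6 in AFFN1 libraries, and each group's range met the next.

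The other constant genes were near the limit of detection. Ighg3, the γ3 gene, had 25, 30 and 31 reads in the AFFN1 libraries of day 6 and at most 6 in any other library. Igha, the α gene, had 1, 0 and 0 reads in control, 11, 15 and 1 in BN1, and 8, 6 and 7 in AFFN1 libraries on day 6. Ighe, the ε gene, had 10, 12 and 7 reads in AFFN1 libraries of day 6 and at most 5 elsewhere. Ighg1 and Ighg2c had at most 7 and 4 reads in any library. No constant gene had a value that was not whole in any library.

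**Figure D1:**
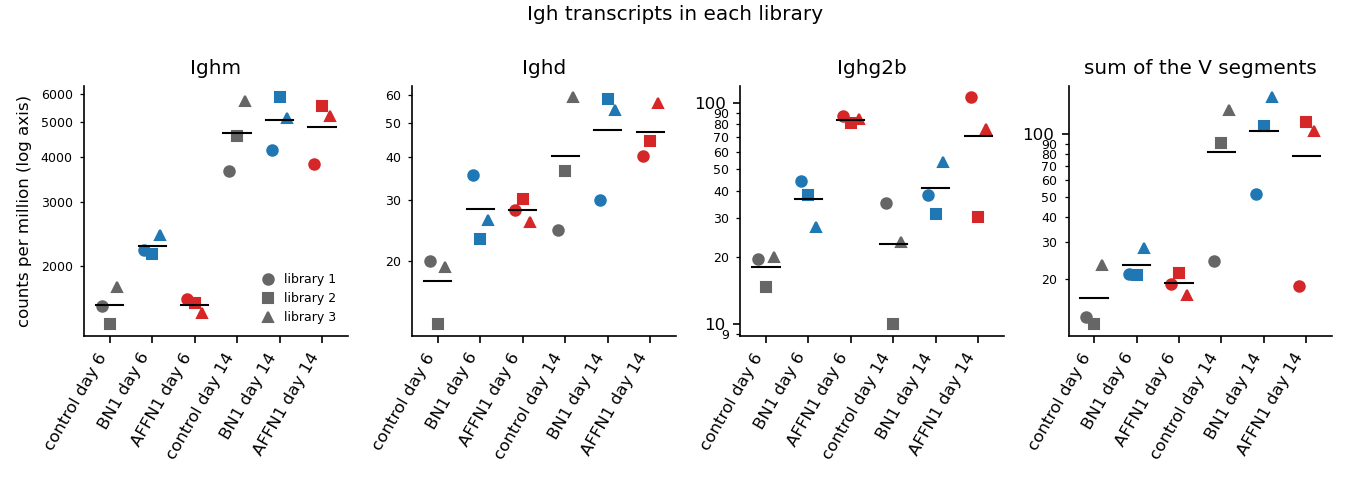
CPM of Ighm, Ighd, Ighg2b and all V segments summed, on a log axis, scaled over all 18 libraries, with 1 point per library (circle, square and triangle for libraries 1, 2 and 3) and a line at the mean of each group. Ighm is higher on day 14 than on day 6 in every library, Ighg2b is highest in AFFN1 cells among the groups of day 6, and the V sum of library 1 is the lowest of each group on day 14.

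On day 6, BN1 cells had more Ighm, Ighd and Ighg2b than control cells, together with more of the proximal V segment Ighv5-2 and the distal V segment Ighv1-23. These were the only members called higher, and no member was called lower. Ighm was 1.45-fold higher (log2 fold change 0.53 ± 0.10 SE, adjusted p = 0.00471), Ighd 1.60-fold (0.67 ± 0.19, adjusted p = 0.0320) and Ighg2b 2.01-fold (1.01 ± 0.17, adjusted p = 0.00309), by edgeR's quasi-likelihood test with Benjamini-Hochberg adjustment over all 12068 genes tested. Ighd lost its call when control library 1 or 2 or BN1 library 1 or 3 was left out, with log2 fold changes of 0.48 to 0.80 over all omissions. Of the 214 members 20 passed the filter on low counts, 4 constant genes and 16 V segments, and 5 were called, beside 17.4% of all genes tested (8.83% higher and 8.53% lower). Their median log2 fold change was 0.66, against -0.02 for all genes. Without control library 1 or BN1 library 1 the called members numbered 3, of 25 and 24 tested. Summed erythroid markers were at 32.9 to 35.0 CPM in BN1 and 3.08 to 3.23 in control libraries. T-cell markers were at 95.5 to 119 and 71.2 to 76.7, and plasma cell markers at 494 to 537 and 450 to 471. Of these lists 4, 3 and 9 genes were tested, with 2, 2 and 3 called higher and 0, 1 and 1 lower. Of the mature B-cell markers 5 were tested and 4 called higher in BN1 cells, Ighd among them, with sums of 90.4 to 157 and 60.8 to 176 CPM. Pro-B and pre-B markers were at 10035 to 10505 CPM in BN1 and 7103 to 10153 in control libraries. Of these 10 were tested, with 3 called higher and 0 lower. The part of these markers in the results was not tested.

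Reads of the called V segments were few. Ighv5-2 had 13, 25 and 13 reads in control and 43, 50 and 72 in BN1 libraries. All BN1 values exceeded all control values, and the log2 fold change was 1.62 ± 0.44 (adjusted p = 0.0311). Its call was lost without control library 1 (log2 fold change 1.45) or without any single BN1 library (1.35 to 1.80). Ighv1-23 had 8, 4 and 3 reads in control and 30, 33 and 25 in BN1 libraries, a log2 fold change of 2.47 ± 0.41 (adjusted p = 0.00248) that was called in all 9 omissions of a library. The other 14 tested V segments were not called, with log2 fold changes from -0.995 for Ighv1-56 to 1.54 for Ighv1-74.

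AFFN1 cells on day 6 differed from control in other members. Ighg2b, Ighg3, Ighd and the distal V segments Ighv1-5, Ighv1-7 and Ighv1-52 were higher, and the distal Ighv1-56 and the intermediate Ighv14-2 were lower. Distal is meant by family here. Ighv1-5 and Ighv1-7 lie 1084 and 1109 kb from the first J segment, in a V region that reaches 2580 kb. Ighm was not called, at -0.0036 ± 0.10 on the log2 scale (adjusted p = 0.983). Called members numbered 8 of the 20 tested, 6 higher and 2 lower, beside 12.7% of all genes (7.79% higher and 4.87% lower). Ighg2b was 4.61-fold higher (log2 fold change 2.21 ± 0.17, adjusted p = 5.2e-05) and Ighg3 15.7-fold higher (3.97 ± 0.59, adjusted p = 0.00188), both in every omission of a library. Ighd was 1.59-fold higher (0.67 ± 0.19, adjusted p = 0.0391) and lost its call without control library 1 or 2, BN1 library 3 or AFFN1 library 1 or 2 (log2 fold changes of 0.52 to 0.78). The number of called members fell to 5 without control library 2 (of 26 tested) or AFFN1 library 1 (of 24). It fell to 4 without AFFN1 library 2 (of 24). Summed mature B-cell markers were at 190 to 251 CPM in AFFN1 and 60.8 to 176 in control libraries, with 3 of 5 tested called higher, Ighd among them. Plasma cell markers were at 556 to 621 and 450 to 471, T-cell markers at 95.7 to 108 and 71.2 to 76.7, and erythroid markers at 5.60 to 7.80 and 3.08 to 3.23. Of these 3 lists 9, 3 and 4 genes were tested, with 3, 1 and 2 called higher and 0 lower. Pro-B and pre-B markers were at 8370 to 10275 CPM in AFFN1 and 7103 to 10153 in control libraries. Of these 10 were tested, with 2 called higher and 1 lower. The part of these markers in the results was not tested.

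Ighv1-5 had 11, 13 and 9 reads in control and 64, 88 and 46 in AFFN1 libraries, a 5.75-fold difference (log2 fold change 2.52 ± 0.37, adjusted p = 0.00166). Ighv1-7 went from 6, 1 and 4 reads to 30, 43 and 24, an 8.44-fold difference (3.08 ± 0.46, adjusted p = 0.00198). Both kept their calls in all 9 omissions. Ighv1-52 had 2, 2 and 10 reads in control and 18, 27 and 18 in AFFN1 libraries (log2 fold change 2.14 ± 0.58, adjusted p = 0.0359), a call lost in 5 of 9 omissions, with control libraries 1 and 2, BN1 library 1 and AFFN1 libraries 1 and 2 (1.79 to 2.20). With the replicate number as a block its adjusted p was 0.0533.

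The 2 V segments called lower in AFFN1 cells had few reads. Ighv1-56 had 6, 16 and 34 reads in control and 2, 2 and 3 in AFFN1 libraries (log2 fold change -2.94 ± 0.74, adjusted p = 0.0266). Its call was lost without control library 2 or 3 or AFFN1 library 1 or 2 (-2.93 to -2.31). Ighv14-2 had 15, 14 and 19 reads in control and 5, 8 and 3 in AFFN1 libraries (-1.59 ± 0.41, adjusted p = 0.0308), and lost its call without any single control or AFFN1 library (-1.95 to -1.30). None of the 3 tested proximal V segments was called, although their log2 fold changes were -1.71 for Ighv5-2, -1.78 for Ighv2-2 and -3.63 for Ighv5-4. The last had 3, 9 and 43 reads in control and 0, 0 and 4 in AFFN1 libraries, and was called with the replicate number as a block (-3.67 ± 0.76, adjusted p = 0.0198).

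Set against each other on day 6, BN1 cells had more Ighm and Ighv5-2 than AFFN1 cells, and less Ighg2b, Ighg3, Ighv1-5 and Ighv1-7. These 6 were called of 20 tested, beside 11.2% of all genes (4.99% higher and 6.19% lower), and the comparison shares its libraries with both comparisons above. Ighm was 1.45-fold higher in BN1 cells (log2 fold change 0.54 ± 0.10, adjusted p = 0.00614). Ighv5-2, with 43, 50 and 72 reads against 7, 7 and 2, was 10.0-fold higher (3.33 ± 0.51, adjusted p = 0.00207). The γ genes were lower in BN1 cells, Ighg2b at -1.20 ± 0.17 on the log2 scale (adjusted p = 0.00124), Ighg3 at -3.78 ± 0.57 (adjusted p = 0.00181). Ighv1-5 and Ighv1-7 were lower by -2.08 ± 0.35 and -2.20 ± 0.42 (adjusted p = 0.00351 and 0.00717). Each of the 6 kept its call in all 9 omissions. A fit on all 18 libraries, which share 1 estimate of the spread, tested 54 members. It called 2, 3 and 2 of them in the 3 comparisons of day 6, and shares of all genes called were not tallied for it. By edgeR, against control BN1 cells then lost the calls of Ighm (adjusted p = 0.0676), Ighg2b (0.175) and Ighd (0.186), and AFFN1 cells those of Ighv1-5 (0.0561), Ighv1-7 (0.0590), Ighv1-52 (0.184), Ighd (0.234) and Ighv14-2 (0.350). Between BN1 and AFFN1 cells Ighm (0.0947), Ighv1-5 (0.119), Ighg2b (0.145) and Ighv1-7 (0.173) lost theirs. Ighd was not called between the fusions (0.0020 ± 0.18). Summed erythroid markers were at 32.9 to 35.0 CPM in BN1 and 5.60 to 7.80 in AFFN1 libraries. Mature B-cell markers were at 90.4 to 157 and 190 to 251, and plasma cell markers at 494 to 537 and 556 to 621. Of these lists 4, 5 and 9 genes were tested, with 2, 1 and 1 called higher in BN1 cells and 1 lower in each. Pro-B and pre-B markers were at 10035 to 10505 and 8370 to 10275 CPM, with 2 of 10 called higher and 0 lower. The part of these markers in the results was not tested.

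**Figure D2:**
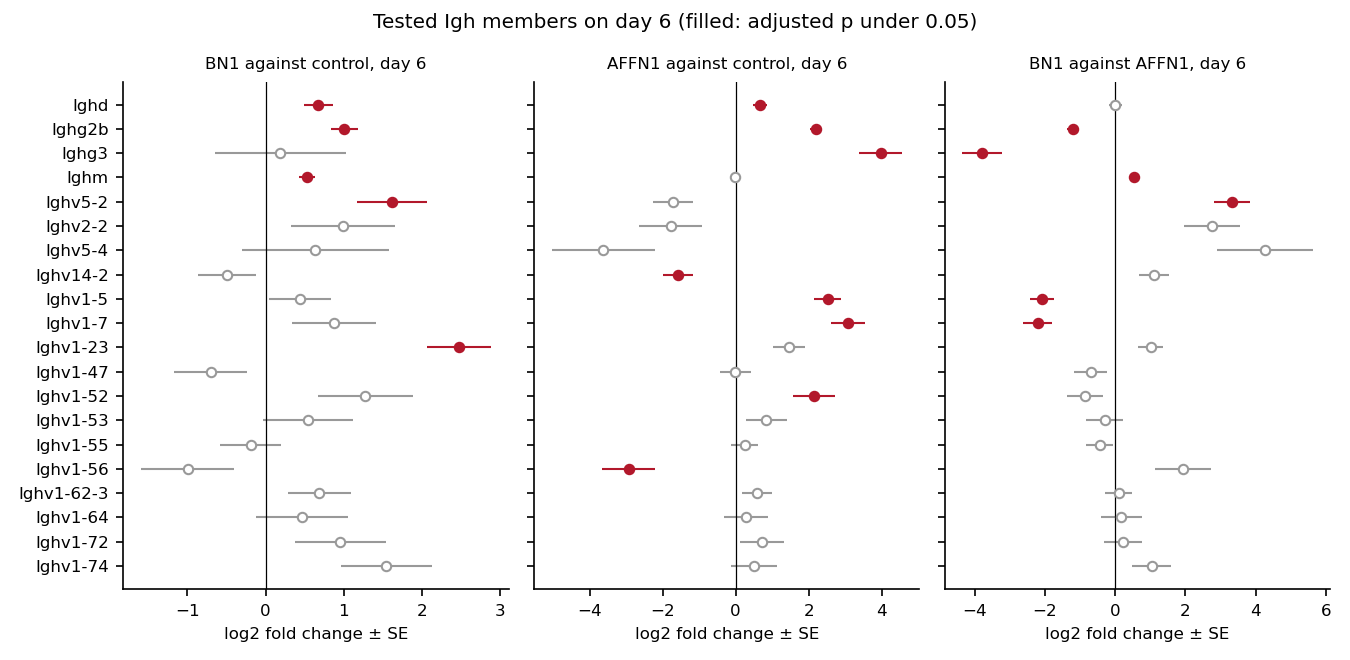
Log2 fold change with its standard error of the 20 members tested on day 6, in 3 comparisons, constant genes first and V segments in order of distance from the J segments, with called members filled. Ighg2b and Ighg3 are called lower in BN1 than in AFFN1 cells, and the proximal Ighv5-2 stands on the opposite side from the distal Ighv1-5 and Ighv1-7 between BN1 and AFFN1 cells.

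All V segments together had 15833 counts, spread over 127 of the 185, and 104 had at least 10. The 58 V segments with no count include both segments annotated as IG_LV. Of the 70 annotated pseudogenes 22 had counts, and pseudogenes took 0.615 to 4.64% of the V level of a library. Here and below, the V level is counts per kb of annotated exon. On day 6 the libraries had 187 to 495 V reads, or 18.3 ± 7.03 CPM in control, 26.2 ± 4.60 in BN1 and 21.5 ± 2.65 in AFFN1 cells (SD, n = 3). The lowest and highest libraries were at 13.7 and 26.4 CPM in control, 23.4 and 31.5 in BN1 and 18.8 and 24.1 in AFFN1 cells, so all 3 groups overlapped. V level per kb was 4.31 to 6.83% of that of Ighm in every day 6 library.

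Zone was read from the family, Ighv5 and Ighv2 as proximal (33 segments), Ighv1 and Ighv8 as distal (109) and the other families as intermediate (43). In control cells on day 6 the proximal families made 18.2, 26.3 and 35.3% of the V level, and in BN1 cells 27.8, 24.1 and 37.2%. AFFN1 cells had 2.65, 3.12 and 6.23%, below every other library of the series. Their distal share was 89.7, 87.4 and 85.1%, against 56.0 to 70.2% in control and 57.5 to 66.6% in BN1 libraries. In reads, the proximal families had 8, 12 and 19 in AFFN1 libraries, 41, 49 and 167 in control and 114, 87 and 187 in BN1 libraries. An exact permutation test of 3 against 3 libraries cannot go below a two-sided p of 0.1, and none was computed for the shares.

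On day 14 the balance was the other way in all 3 groups. Proximal families made 63.8, 66.2 and 61.4% of the V level in control, 56.5, 59.6 and 52.3% in BN1 and 67.2, 69.9 and 54.6% in AFFN1 libraries, and distal families 17.6 to 31.1%. Every BN1 library was below every control library, and so in each pair of the same number, while AFFN1 libraries overlapped both groups. Counts not scaled to length kept control (62.5 to 67.0%) and BN1 (53.2 to 60.4%) apart. Without the highest V segment of a library they overlapped, at 58.3, 59.0 and 51.6% in control and 50.4, 53.0 and 45.6% in BN1. By position, as described below, they overlapped too, at 86.2, 89.5 and 83.1% in control and 86.4, 88.7 and 78.5% in BN1. Ighv5 alone made 36.7 ± 1.03% in control cells on day 14 and 14.7 ± 5.05% on day 6, and 36.2 ± 7.21% and 2.42 ± 0.292% in AFFN1 cells (SD, n = 3). Ighv1 made 82.1 ± 1.59% of the V level in AFFN1 cells on day 6, 56.1 ± 9.21% in control and 55.8 ± 4.22% in BN1 cells, and 19.5 to 22.2% on average in the groups of day 14. Of the intermediate families, Ighv14 was the largest on day 6 (7.16 ± 2.03% in control cells), and Ighv9 reached 5.50 ± 0.692% in BN1 cells on day 14.

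**Figure D3:**
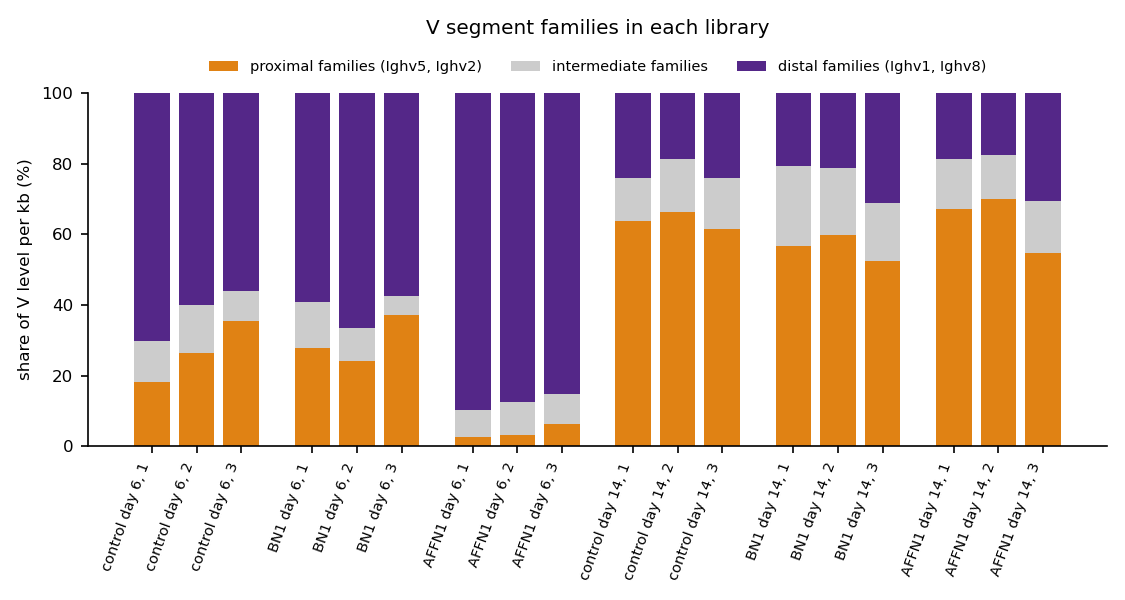
Share of the V level per kb in proximal, intermediate and distal families, as stacked bars from 0 to 100%, with 1 bar per library. AFFN1 libraries of day 6 have 2.65 to 6.23% from proximal families, and all 9 libraries of day 14 have 52.3 to 69.9%.

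Position gave a second view of the same counts, and here the low proximal share of AFFN1 cells was not seen over the wider region. Counted by the part of the V region up to 1362 kb from the first J segment, with 108 of the V segments, the nearer part held 50.5% of the V level in control, 55.1% in BN1 and 49.9% in AFFN1 cells on day 6, and 84.5 to 86.2% on day 14. In bins of distance, AFFN1 cells on day 6 had 4.10 ± 1.84% within 500 kb, against 27.5 ± 8.66% in control and 30.0 ± 6.85% in BN1 cells, and 40.3 ± 4.12% between 1000 and 1500 kb, against 13.3 ± 2.59% and 17.9 ± 3.01%. Ighv1-5 (1084 kb) and Ighv1-7 (1109 kb) lie in that second bin. Between 500 and 1000 kb AFFN1 libraries had 5.12 to 6.19%, below control (7.37 to 11.1%) and within the range of BN1 (3.62 to 10.8%). Between 1500 and 2000 kb the means were 29.1% in control, 21.4% in BN1 and 28.8% in AFFN1 cells. There BN1 libraries (21.2 to 21.5%) lay below all control (27.4 to 30.9%) and AFFN1 libraries (27.1 to 30.2%). Beyond 2000 kb the means were 20.3, 23.5 and 21.1%, and all 3 groups overlapped.

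**Figure D4:**
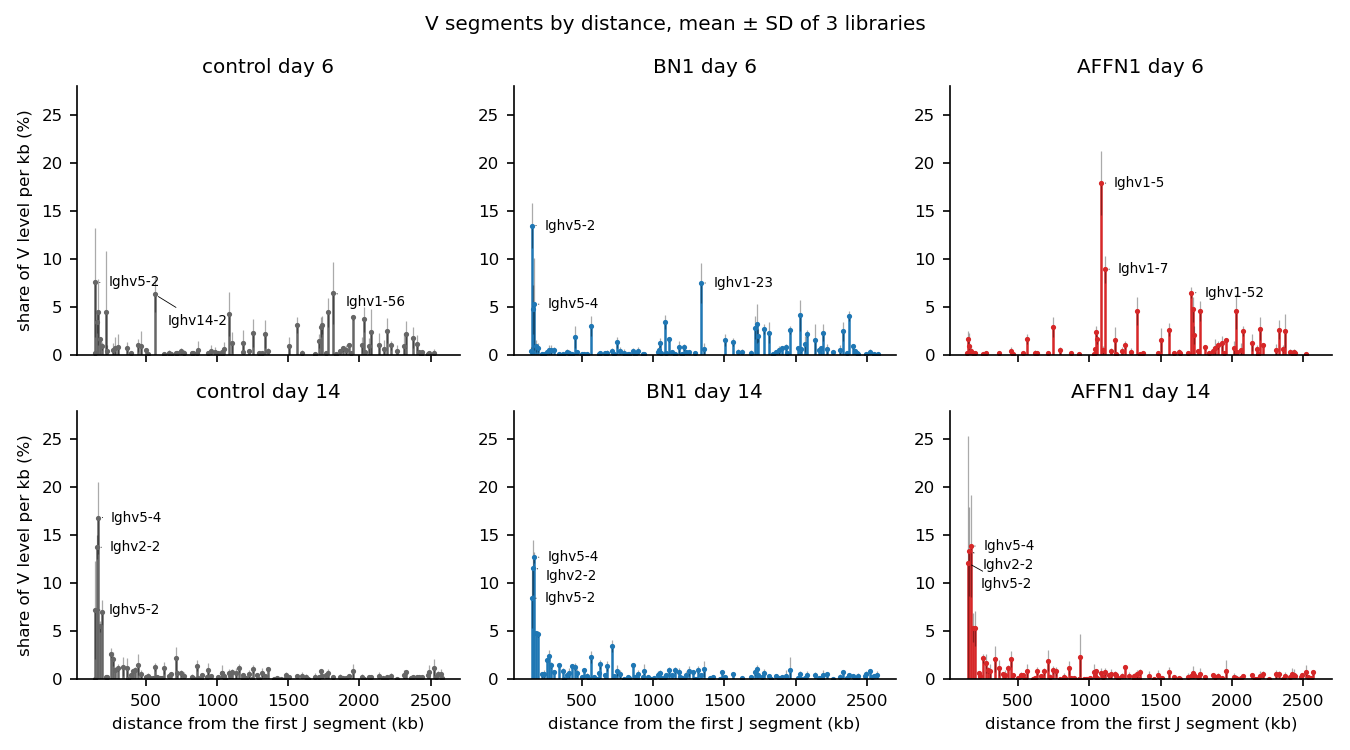
Share of the V level per kb of each V segment against its distance in kb from the first J segment, as the mean and SD of 3 libraries, in 1 panel per group, with the 3 highest shares named. Signal on day 14 lies mostly within 500 kb, and Ighv1-5 stands out in AFFN1 cells on day 6 at 17.9%.

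Single V segments led to different degrees. In AFFN1 cells on day 6 Ighv1-5 was first in all 3 libraries, with 18.9, 20.5 and 14.2% of the V level, and Ighv1-7 second in all 3, with 9.03, 10.2 and 7.45%. Ighv1-52 followed with 6.44 ± 0.581% (SD, n = 3). In BN1 cells on day 6 Ighv5-2 was first in all 3 libraries, with 10.8, 14.3 and 15.3%, ahead of Ighv1-23 (7.46 ± 2.08%) and Ighv5-4 (5.25 ± 4.79%). Control libraries of day 6 had a different first V segment each. These were Ighv14-2 at 6.76%, Ighv5-2 at 13.8% and Ighv2-4 at 11.6%. By mean level per kb Ighv1-56, Ighv5-2 and Ighv2-4 led, and the last had 4, 0 and 52 reads, so that its place rests on control library 3.

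On day 14 Ighv5-4 and Ighv2-2 had the highest mean level per kb in all 3 groups, with 16.8 ± 3.75% and 13.7 ± 1.27% of the V level in control, 12.7 ± 0.572% and 11.6 ± 2.87% in BN1, and 13.9 ± 5.32% and 13.3 ± 4.63% in AFFN1 cells. Next came Ighv5-6 in control (6.95 ± 1.28%) and Ighv5-2 in the fusion groups. In AFFN1 cells Ighv5-2 made 27.3, 5.42 and 3.55% of the V level, so that its place rests on library 1.

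Spread was summarised by the effective number of V genes, the number of equally used V segments that would give the same evenness. It was 33.0 ± 3.96 in control, 35.8 ± 3.73 in BN1 and 27.0 ± 2.70 in AFFN1 cells on day 6, and 31.7 ± 0.935, 40.9 ± 4.95 and 30.7 ± 10.5 on day 14 (SD, n = 3). The AFFN1 libraries of day 6, at 26.5, 24.6 and 29.9, overlapped control (28.6 to 36.3) but not BN1 (33.5 to 40.1). On day 14 the BN1 libraries, at 39.5, 36.9 and 46.5, were all above control (30.6 to 32.4), and AFFN1 libraries (22.3 to 42.4) overlapped both. The 5 highest V segments held 45.6, 47.6 and 39.4% in AFFN1 libraries on day 6, 28.7 to 41.4% in control and 36.0 to 39.0% in BN1 libraries. At an equal depth of 187 reads, 40.6 to 43.8 V segments were expected to have a read in AFFN1 libraries of day 6, 46.0 to 48.6 in control and 48.0 to 56.4 in BN1 libraries. For day 14, where libraries had 303 to 2438 V reads, these numbers were 50.19 to 54.91 in control, 54.93 to 60.54 in BN1 and 46.54 to 59.77 in AFFN1 libraries. At that depth BN1 and control thus nearly met. No library was made of 1 V segment, and the highest share of any was 27.3%.

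Libraries of a group could be compared by the V level they share, the sum over V segments of the smaller of 2 shares. AFFN1 libraries of day 6 shared 71.7 to 79.6% with each other, BN1 libraries 68.4 to 70.4% and control libraries 54.4 to 59.7%. Control libraries of day 6 shared 51.3 to 64.6% with BN1 libraries of that day. Few reads also lower such a sum, and the libraries were not set to an equal depth for it. AFFN1 libraries of day 6 shared 41.0 to 56.9% with control libraries of the same day and 15.7 to 27.6% with AFFN1 libraries of day 14. On day 14 control libraries shared 65.8 to 84.2% with each other and 70.2 to 80.6% with BN1 libraries. AFFN1 libraries of day 14 shared 52.5 to 77.3% with each other.

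**Figure D5:**
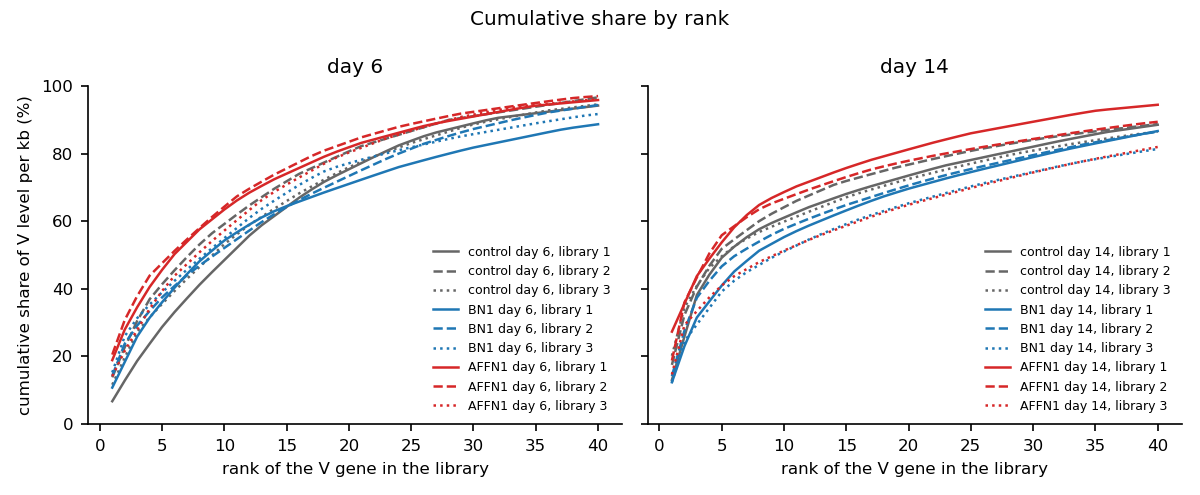
Cumulative share of the V level per kb against the rank of the V segment in each library, for the first 40 ranks, with colour for the group and line style for the library. On day 6 the first 5 ranks hold 39.4 to 47.6% in AFFN1 libraries, overlapping control (28.7 to 41.4%), and on day 14 AFFN1 library 1 starts at 27.3%.

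No member was called between groups on day 14. Of 46 members tested, 3 constant genes and 43 V segments, edgeR's quasi-likelihood test called 0 between BN1 and control (2 at an unadjusted p under 0.05), 0 between AFFN1 and control (1) and 0 between BN1 and AFFN1 (0). DESeq2 also called 0 in each. Among all 11657 genes tested, edgeR called 0.0257, 0.0429 and 0%. At an unadjusted p under 0.05 by edgeR were 20.2, 6.19 and 8.51% of all genes, against 4.35, 2.17 and 0% of the members. With the replicate number as a block, which pairs the libraries on this day, 11.6, 0.558 and 0.18% of all genes were called and still 0 members. V segments had a median log2 fold change of 0.51 in BN1 and -0.08 in AFFN1 cells against control.

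Ighg2b had the largest change of the 3 constant genes tested on day 14, though not a called one. Its log2 fold change against control was 0.83 ± 0.54 in BN1 cells (adjusted p = 0.424) and 1.61 ± 0.55 in AFFN1 cells (adjusted p = 0.704), and with the replicate block 1.00 ± 0.29 (adjusted p = 0.0627) and 1.60 ± 0.29 (adjusted p = 0.0750). Each fusion library exceeded the control library of the same number. In a fit with the block and without the libraries numbered 1, chosen after seeing the data, it was called in both, at 1.40 ± 0.19 (adjusted p = 0.000129) and 1.63 ± 0.19 (adjusted p = 3.3e-05). Ighm and Ighd had log2 fold changes of 0.10 ± 0.22 and 0.23 ± 0.34 in BN1 cells and 0.04 ± 0.22 and 0.22 ± 0.34 in AFFN1 cells.

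The V sum varied most between libraries on day 14. It was 21.7, 80.3 and 119 CPM in control, 45.3, 97.7 and 132 in BN1, and 16.3, 101 and 91.0 in AFFN1 libraries. The groups overlapped, and BN1 was above control in each of the 3 pairs of the same number. The libraries numbered 1 were the lowest of each group, with 402, 842 and 303 V reads against 1490 to 2438 in the others. The κ light chain gene Igkc, which is expressed after a heavy chain has been made, was at 5.88, 12.3 and 2.58 CPM in the libraries numbered 1 and at 45.7 to 157 in the others. Dntt, the enzyme that adds bases at the joins, was at 16.8 CPM in control library 1, at 297 in BN1 library 1 and at 111 in AFFN1 library 1, against 308 to 609 in the others. Their part in the V sum was not tested.

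Between days, control cells had more Ighm, Ighd and proximal V transcripts on day 14 than on day 6. Of 54 members tested 28 were called higher and 3 lower, beside 22.4 and 21.4% of all 12567 genes tested (43.9% in all). A member that passed the filter only through day 14 could only be called higher, so these counts are no measure over all members. On the scale over all 18 libraries Ighm rose from 1546, 1378 and 1749 to 3658, 4584 and 5746 CPM, or 2.99-fold (log2 fold change 1.58 ± 0.18, adjusted p = 5.5e-06). Ighd rose from 20.1, 13.2 and 19.3 to 24.6, 36.4 and 59.2 CPM (1.19 ± 0.30, adjusted p = 0.00468). In both genes each day 14 library exceeded each day 6 library. Ighg2b was not called (0.34 ± 0.43). The difference is one of day or of experiment, which cannot be told apart.

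By zone, 12 of the 15 tested proximal V segments, 7 of the 11 intermediate and 7 of the 23 distal ones were called higher, with median log2 fold changes of 4.10, 3.82 and -0.12, against -0.03 for all genes. Segments passed the filter through whichever day they were high on, and one near 0 reads on day 6 could only be called higher. These counts and medians by zone are therefore no measure over all V segments. Summed without the filter, proximal reads in control libraries were 41, 49 and 167 on day 6 and 260, 999 and 1243 on day 14. Distal reads were 166, 113 and 260, then 95, 272 and 470. Ighv5-4 went from 3, 9 and 43 reads on day 6 to 59, 296 and 454, and Ighv5-6 from 1, 2 and 5 to 23, 118 and 120 (log2 fold change 5.15 ± 0.92, adjusted p = 0.000377). Ighv2-5 had 0 reads in the control libraries of day 6 and 118 on day 14, at least 43.7-fold higher against a floor of 3 reads over the group. By the same floor Ighv2-9-1 was at least 22.6-fold higher (61 reads), Ighv5-17 at least 16.7-fold (45), Ighv1-9 at least 13.0-fold (35) and Ighv5-16 at least 11.1-fold (30).

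All 3 called lower were distal. Ighv1-56 had 6, 16 and 34 reads on day 6 and 1, 1 and 4 on day 14 (log2 fold change -2.95 ± 0.81, adjusted p = 0.00757). Ighv1-62-3 went from 33 reads to 1, a ratio of 29.7 with a counting interval of 4.97 to 1207, and shares reads with Ighv1-72, which differs from it by 2 of 294 bases. Ighv8-6 had 7, 4 and 18 reads and then 2, 4 and 1 (-1.81 ± 0.69, adjusted p = 0.0441). Its call was lost in 10 of 18 omissions of a library, with values from -2.39 to -1.13, and with DESeq2, with no filter and with the replicate block. With the replicate block Ighv2-6 (3.38 ± 0.88, adjusted p = 0.00811) and Ighv5-9-1 (2.78 ± 0.99, adjusted p = 0.0338) were also called higher.

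Marker sums of control cells differed between the days as well. They are scaled within each day, so the 2 days are not on the same scale. Calls are from the fit on all 18 libraries, beside 22.4% of all genes higher and 21.4% lower. Mature B-cell markers, Ighd included, were at 60.8 to 176 CPM on day 6 and 250 to 809 on day 14, with 6 of 8 tested called higher. T-cell markers were at 71.2 to 76.7 CPM on day 6 and 176 to 228 on day 14 (3 of 3 tested higher). Plasma cell markers were at 450 to 471 and 534 to 771 (5 of 9 higher). Erythroid markers were at 3.08 to 3.23 CPM on day 6 and 20.4 to 90.3 on day 14 (3 of 5 higher). Myeloid markers were at 90.2 to 219 CPM on day 6 and 22.6 to 45.4 on day 14 (3 of 5 lower). Pro-B and pre-B markers overlapped, at 7103 to 10153 and 6998 to 11547 CPM (4 of 10 higher and 1 lower). The part of these markers in the difference between days was not tested.

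No member was called for a difference of the fusion effects between days by edgeR's test or DESeq2. EdgeR called 2.97% of all genes for BN1 and 1.46% for AFFN1. By edgeR 3 of 54 members had an unadjusted p under 0.05 for BN1 and 6 for AFFN1. These are 5.56 and 11.1% of the members, against 13.0 and 9.71% of all genes. With the replicate block, which called 5.16 and 2.54% of all genes, only Ighv2-4 was called, at 6.30 ± 1.49 for BN1 (adjusted p = 0.0350) and 8.02 ± 1.74 for AFFN1 (adjusted p = 0.0349), and both effects share the control libraries in which it had 4, 0 and 52 reads. The change between days in the Ighm effect was -0.42 ± 0.25 for BN1 (adjusted p = 0.519) and 0.06 ± 0.25 for AFFN1 (adjusted p = 0.994).

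Recombination genes were described from a list of 14. On day 6, 3 were called higher and 2 lower in BN1 cells, and 1 higher and 2 lower in AFFN1 cells, against control, where 17.4 and 12.7% of all genes were called. Rag1, the recombinase subunit that cuts the DNA, was at 1283, 893 and 1178 CPM in control, 2571, 2122 and 1547 in BN1 and 2934, 2723 and 1933 in AFFN1 libraries (log2 fold changes of 0.90 ± 0.22, adjusted p = 0.0195, and 1.18 ± 0.22, adjusted p = 0.00675). Rag2, its partner, was called in BN1 cells only by this test (0.68 ± 0.19, adjusted p = 0.0381), and the difference between the fusions was not called. Xrcc5, the Ku80 end-binding subunit, was lower in both (-0.64 ± 0.14 and -0.87 ± 0.14). Rag1 was lower in control cells on day 14 than on day 6 (-1.52 ± 0.38), when the list had 3 genes higher and 3 lower beside 43.9% of all genes called. On day 14 no gene of the list was called between groups, and with the replicate block 3 were higher in BN1 cells, beside 11.6% of all genes, with Rag1 at 1.97 ± 0.29 (adjusted p = 0.0137).

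Of 19 genes for activation and folding of the locus, 3 were called higher and 3 lower in each fusion on day 6, beside 17.4% of all genes in BN1 and 12.7% in AFFN1 cells. Pax5, which drives locus contraction, was higher in BN1 (0.50 ± 0.10, adjusted p = 0.00703) and AFFN1 cells (0.37 ± 0.10, adjusted p = 0.0363), and so was Ikzf1, a zinc finger regulator (0.71 ± 0.11 and 0.64 ± 0.11). Ezh2, a histone methyltransferase required for distal V use, was lower in BN1 (-0.69 ± 0.08) and not called in AFFN1 cells, and the direct comparison was called (-0.65 ± 0.08, adjusted p = 0.000753). Wapl, which releases cohesin from DNA, was lower in AFFN1 cells (-0.42 ± 0.08, adjusted p = 0.00882). Pou2f2 (Oct2), which binds the octamer in V promoters, was higher in AFFN1 cells (1.33 ± 0.19) and its coactivator Pou2af1 lower (-0.84 ± 0.10). Against day 6, control cells of day 14 had 7 of the 19 higher and 2 lower, beside 22.4 and 21.4% of all genes. Within day 14 none was called, and with the replicate block Foxo1 (0.73 ± 0.15), Il7r (0.91 ± 0.21) and Ikzf1 (0.49 ± 0.12) were higher in BN1 cells than in control. For the BN1 effect between days the block called 4 higher, E2f2, Ezh2, Tcf3 and Stat5a, beside 5.16% of all genes.

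Heavy chain partners were 12 genes, of which 8 were tested on day 6. In AFFN1 cells Igll1 (λ5) and Vpreb3 were lower (-0.44 ± 0.10 and -1.11 ± 0.25) and Vpreb2 higher (0.72 ± 0.14), λ5 and VpreB being the surrogate light chain that pairs with the µ chain. In BN1 cells Vpreb2 was higher (0.45 ± 0.14, adjusted p = 0.0488 by edgeR) and Syk, the kinase below the pre-B-cell receptor, lower (-1.92 ± 0.16, adjusted p = 3.1e-05). These are 2 calls of 8 in BN1 and 3 of 8 in AFFN1 cells, beside 17.4 and 12.7% of all genes. The BN1 effect on Syk changed between days (2.48 ± 0.40, adjusted p = 0.00186), and with the replicate block Blnk was called higher too and the λ constant genes Iglc1 and Iglc3 lower. The block also called Syk and Blnk higher in BN1 than in control cells on day 14. Against day 6, 8 of 12 were higher in control cells of day 14, beside 22.4% of all genes. Of the 12, 3 had 0 reads in control cells of day 6 and could only be called higher. Cd79a, a signalling chain of the receptor, was higher by 1.63 ± 0.24. Of the genes for class switching and secretion 7 were tested. Irf4 was higher in both fusions on day 6 (1.64 ± 0.24 and 1.14 ± 0.24), Xbp1 lower in BN1 cells (-0.84 ± 0.18) and Mzb1 higher in AFFN1 cells (0.49 ± 0.12). With the replicate block Jchain and Ung were lower in BN1 than in control cells on day 14 (-1.94 ± 0.44 and -0.63 ± 0.15).

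Among 31 genes next to or inside the locus 14 were tested on day 6, with 1 called lower in BN1 cells and 1 higher and 1 lower in AFFN1 cells, beside 17.4 and 12.7% of all genes. Crip1, a LIM protein gene on the constant region side (113146316 to 113153879), had 0, 0.0733 and 0.226 CPM in control, 0.115, 0 and 0.127 in BN1 and 24.4, 25.3 and 19.2 in AFFN1 libraries (log2 fold change 7.66 ± 0.46, adjusted p = 1.0e-05). Its AFFN1 effect differed between days (-8.48 ± 0.62, adjusted p = 2.3e-06), and on day 14 it was at 59.6 to 185 CPM in all libraries. Vipr2, a peptide receptor gene on the distal V side, was lower in BN1 (-2.23 ± 0.23) and AFFN1 cells (-1.93 ± 0.23), and with the replicate block also in AFFN1 cells on day 14 (-1.51 ± 0.22). Within the distal V region lies Gm30948, annotated on the plus strand from 115262684 to 115287908. It had 116 to 274 CPM on day 6 and 6.48 to 36.8 on day 14, each scaled within its day. By edgeR's fit on all 18 libraries it was lower in control cells on day 14 (-3.27 ± 0.35, adjusted p = 6.0e-06). On day 14 the block called it higher in BN1 cells (1.33 ± 0.20).

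Across the 18 libraries the genes whose log2 level was most like that of Ighm were Rnpepl1 (Pearson's r = 0.983), Zc3h10 (0.982), Ube2c (0.979), Gm42031 (0.977) and Pgls (0.974), as a description in which all points share the difference between days.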

How the data were processed

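RNA of the 18 libraries was sequenced after poly(A) selection with a stranded TruSeq kit, per the labels' protocols. STAR, RSEM, DESeq2 and the mm10 build are named in the submitters' processing notes, and for their versions, the annotation and the strand setting the sources used here give nothing. The authors deposited RSEM expected counts per gene, where reads that fit several genes are divided, and 1.74 to 2.12% of a library's values were not whole. The counts were rounded and tested with edgeR 4.0.16 (TMM scaling, filterByExpr, robust quasi-likelihood fit, R 4.3.3, limma 3.58.1) with Benjamini-Hochberg adjustment over all genes tested and a threshold of 0.05. Comparisons within a day used its 9 libraries, and those between days all 18. The edgeR test of BN1 against control within a day was run on simulated counts with a single fixed spread and no pairs. That run did not look at V segments with few reads by themselves, nor model the spread of the day 14 libraries.

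V shares are counts per kb of exon. The text names every constant gene, the 3 V segments with the highest mean level per kb in each group, up to 5 called V segments in each direction of a comparison and up to 4 called genes of a list; other genes were named after their values were seen. The members and gene lists were chosen with earlier results of these data known. Some list genes are not reported here.

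Labels give the groups the same replicate numbers. On day 14, libraries of the same number also share a code, and their deviations from the group means correlated in all 9 pairs (r = 0.291 to 0.614). Values for different numbers were -0.503 to 0.0142. Deviations within a group cancel out, so these lower values follow in part from the higher ones. The main test left the libraries unpaired, and pairs entered only through the replicate block. Alternatives were RLE scaling, no filter, the replicate block, DESeq2 1.42.0, a fit on all libraries, each library left out, and other ways to count V shares.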

Additional observations from a re-analysis of the deposited data

How the results depend on the processing

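Few V reads (187 to 495 per library on day 6) limit what single V segments can show, and near-identical V segments share reads. Over 44 results for single genes, 679 values under another setting kept direction and side of the threshold, 58 lost the call, 2 gained it and 30 changed sign; the cause was not tested. A fit on all 18 libraries tested 54 members. It called 2 for BN1 against control, 3 for AFFN1 against control and 2 for BN1 against AFFN1 on day 6.

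On day 6, libraries of the same number did not deviate together (r = -0.321 to 0.351 in 9 pairs, -0.36 to 0.395 for different numbers), so they share only a number. With the replicate block 5, 8 and 7 members were called there, beside 14.9, 11.2 and 10.2% of all genes. With the replicate block 1 member was called for the BN1 effect and 1 for the AFFN1 effect between days (5.16 and 2.54% of all genes). Without replicate 1 the block called 1 of 56 tested members in BN1 and 1 in AFFN1 cells against control on day 14. On day 6 the block also called Ighv5-4 between BN1 and AFFN1 cells (adjusted p = 0.00770), and by edgeR with the block Vpreb2 (0.0686) and E2f2 (0.0665) in BN1 and Pax5 (0.0517) in AFFN1 cells were not called against control. It changed further calls of list genes that are not named. Signs turned near 0. Ighm in AFFN1 cells against control on day 6 was at 0.0059 with no filter, 0.0030 with the block, 0.12 without the libraries numbered 3 and 0.0016 in the fit on all libraries. Ighd between BN1 and AFFN1 cells was at -0.027 on day 6 and -0.025 on day 14 with the block, and at -0.25 and -0.00046 with the block and without replicate 2 or 3. Ighm in AFFN1 cells against control on day 14 was at -0.050 with the block and without replicate 2.

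Leaving out each library in turn, called members numbered 3 to 7, 4 to 10 and 6 to 9 in the comparisons of day 6 as ordered above. They numbered 0 in each of day 14 and in both effects between days, and 23 to 33 between days in control cells. Shares of all genes called were not tallied for these fits. Log2 fold changes that turned sign ranged on day 6 from -0.67 to 0.73 for Ighg3 in BN1 cells, -0.077 to 0.10 for Ighm in AFFN1 cells and -0.20 to 0.13 for Ighd between the fusions. On day 14 they ranged from -0.0085 to 0.64 for Ighd and -0.030 to 0.30 for Ighm in BN1 cells, -0.024 to 0.62 and -0.091 to 0.24 in AFFN1 cells, and -0.16 to 0.26 and -0.082 to 0.18 between the fusions. Between days in control cells they ranged from -0.12 to 0.69 for Ighg2b and -0.52 to 0.056 for Ighg3.

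For V use, the order here is control, BN1 and AFFN1 on day 6 and then on day 14. By position the proximal share was 50.5, 55.1, 49.9, 86.2, 84.5 and 85.5%. Without the highest V segment of a library it was 18.8% in BN1 cells on day 6 and 56.3, 49.6 and 54.8% on day 14, and the V sum of AFFN1 cells on day 6, not per kb, was 17.4 CPM. The effective number from V segments with whole counts was 25.7, 27.6 and 19.7 on day 6 and 30.2 in control cells on day 14 (30.7 with counts not scaled to length), and from those with at least 10 counts 8.20, 10.9, 8.49, 13.5, 23.1 and 15.3. Leaving out a library gave proximal shares of 22.2 to 30.8, 26.0 to 32.5, 2.88 to 4.67, 62.6 to 65.0, 54.4 to 58.1 and 60.9 to 68.5%. It gave effective numbers of 31.4 to 35.2, 33.7 to 37.0, 25.5 to 28.2, 31.4 to 32.2, 38.2 to 43.0 and 24.8 to 34.9. V sums, not per kb, were 14.2 to 20.6, 23.6 to 27.6, 20.1 to 22.8, 51.0 to 99.6, 71.5 to 115 and 53.7 to 95.9 CPM.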
